A study of Mus musculus with 12 samples.

Results

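The comparison described here set the RNA of whole dorsal root ganglia (DRG) on the side of a sciatic nerve crush against that of naive ganglia, before any enrichment for neurons. DRG hold the cell bodies of sensory neurons, wrapped by satellite glia and mixed with Schwann cells, macrophages, vessels and connective tissue, so a library of a whole ganglion holds RNA of all these cells. Its members are the 6 of 12 libraries of the series that the sample titles call input, 3 from naive and 3 from injured ganglia. All mice carried Cre recombinase driven by Advillin, a gene of sensory neurons, and also carried RiboTag, an allele by which Rpl22, a protein of the large ribosomal subunit, gains a hemagglutinin (HA) tag wherever Cre has acted, and the naive ganglia share both alleles. One sciatic nerve was crushed, and ganglia of lumbar levels L4 to L6 were taken on day 3 and dissociated. By the design text each animal gave naive and injured ganglia, which would make the naive ones those of the uncrushed side, and no unoperated animals are described. The other 6 libraries, used here only for comparison, are immunoprecipitates (IP) of the HA tag, drawn from the input of the same ganglia. The tag is meant to draw RNA bound to neuronal ribosomes, and some genes of other cells also rose in IP, as given further on. The design text speaks of 4 mice as replicates, and which animal a replicate number stands for is not stated, so p-values measure the spread between these libraries. Strain, sex and age were not given in the sources used here.

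When a peripheral axon is cut or crushed, the sensory neuron far away in the ganglion switches on a set of transcription factors, neuropeptides and cytoskeletal proteins, while many of the ion channels and receptors that give it its sensory identity are turned down. Cells around it respond too. Macrophages of the ganglion enlarge, divide or arrive from blood, satellite glia alter their metabolism and coupling, and cytokines and complement proteins are released. In RNA from whole ganglia, a lower level of a transcript in each cell and a smaller number of the cells that make it cannot be told apart.

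Naive input libraries held 29497771 to 33086433 counts and injured ones 29534269 to 31484191, and 15748 genes had enough counts to test. Levels below are CPM, counts scaled to the size and composition of each library, each list of 3 values is in the order of replicates 1, 2 and 3, and changes are injured against naive on the log2 scale with their standard error (SE). A gene is said to have risen or fallen when its p-value in edgeR's quasi-likelihood test, adjusted over all genes tested by the Benjamini-Hochberg method, was under 0.05. The first principal component of the 6 libraries held 52.77% of the variance and parted injured (22.9 to 38.3) from naive (-35.7 to -26.4) libraries. The second held 26.57% and set both libraries numbered 3 (-30.3 and -29.2) apart from the other 4 (4.05 to 20.7). Naive replicate 2 also stood apart at the axotomy genes: among the 12 genes with the largest rise it was the highest naive library for 11, at a median of 2.76 times the higher of the other naive libraries, and the IP library of the same number was highest for 11 of the same 12. Avil, whose gene drives the Cre, and Rpl22, the tagged protein, did not pass the test, with changes of -0.07 (SE 0.0814, adjusted p = 0.651) and 0.06 (SE 0.0598, adjusted p = 0.548). Avil stood at 543, 507 and 557 CPM in naive and 506, 454 and 571 CPM in injured input.

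Across all genes, crush changed 2526 of 15748 (16%), of which 1226 rose (7.79%) and 1300 fell (8.26%), and the median change was -0.02. Large rises outnumbered large falls: 409 genes rose by at least 1 log2 and 66 fell by at least that much. All injured libraries lay above all naive libraries for 2203 genes (14%) and below them for 2313 (14.7%). With the replicate number as a block within each fraction, since libraries of the same number deviated together, 6237 genes were called (39.6%), 2753 higher (17.5%) and 3484 lower (22.1%), and these held 2525 of the 2526 genes. Counts given for gene lists below are to be read beside these shares over all genes. When each input library in turn was left out, here and below in the fit without the block, 1257 of the 2526 calls, 708 rises and 549 falls, held in all 6 refits. The count of calls was 1524 without naive replicate 1, 1157 without both libraries numbered 1 and 1498 without both numbered 2. The balance of directions was not stable: 1687 genes rose and 753 fell without naive replicate 3, 815 and 342 without both libraries numbered 1, 993 and 505 without both numbered 2, 1936 and 1003 without both numbered 3, and 858 and 477 when only the 6 input libraries were fitted.

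**Figure D1:**
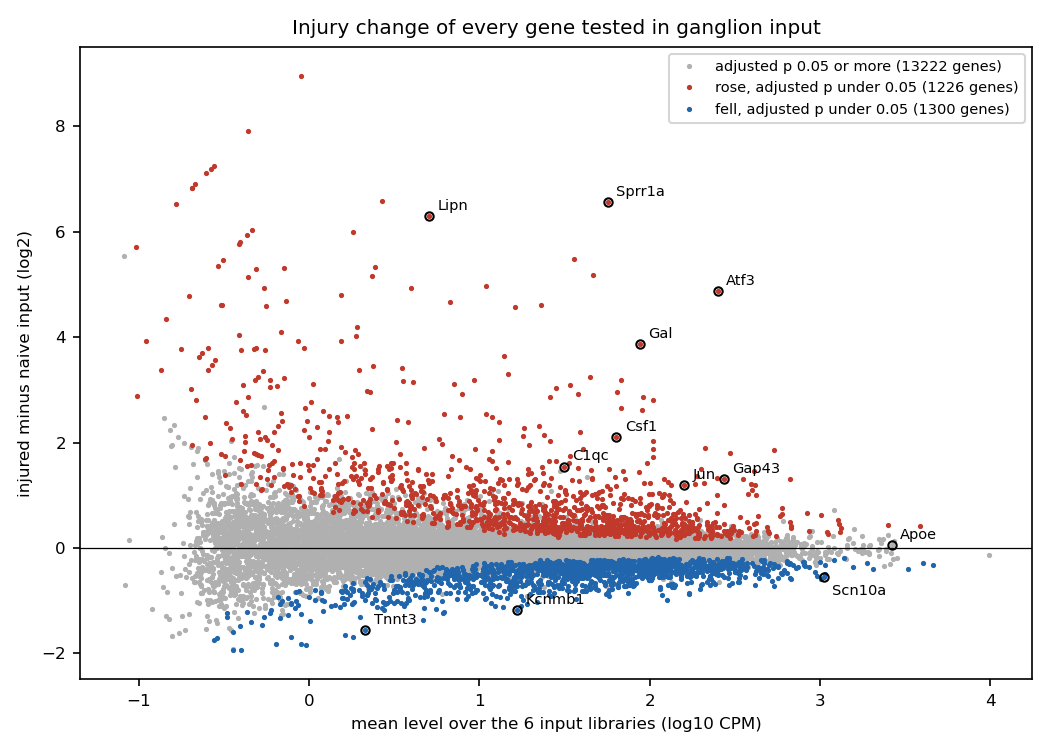
Each point is 1 of the 15748 genes tested, placed by its mean level over the 6 input libraries (log10 CPM) and by its change after crush (log2, injured against naive), with called genes coloured by direction. The rises of Sprr1a, at 6.56, and Atf3, at 4.87, exceed in size every fall plotted, such as that of Tnnt3 at -1.56, and most of the highest points at the left are genes with few reads.

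The 12 largest rises, among called genes with at least 2 CPM on average and groups that did not overlap, held Sprr1a and Ecel1 of the list of growth genes, the transcription factor Atf3, the neuropeptide genes Npy and Ucn and 7 genes that stand on none of the lists. Sprr1a, a proline-rich cytoskeletal protein that injured sensory neurons gain, stood at 0.363, 2.93 and 0.184 CPM in naive and 89.4, 109.8 and 138 CPM in injured input and rose by 6.56 (SE 0.764, adjusted p = 0.000119). Atf3 (chromosome 1, 191170296 to 191183333 on GRCm38), a stress-induced transcription factor, stood at 10.04, 29.1 and 10.5 CPM in naive and 472, 479 and 509 CPM in injured input and rose by 4.87 (SE 0.517, adjusted p = 5.7e-05). In both genes every injured library was far above every naive one, and naive replicate 2 was the highest of the naive libraries. The lipase Lipn rose by 6.29, Anxa10, an annexin, by 6.58, the neuropeptide Npy by 5.49, the potassium channel Kcnk16 by 5.34, the orphan receptor Gpr151 by 5.19, the urocortin gene Ucn by 5.17, the cholecystokinin receptor Cckbr by 4.97, the growth factor Fgf3 by 4.93, Wfdc3 by 4.67 and Ecel1, a neuronal peptidase, by 4.61. Several of them were nearly silent in naive ganglia, such as Lipn at 0.0991, 0.148 and 0.123 CPM, so the size of their fold change rests on few reads. Without naive replicate 2 the rise was 8.68 for Sprr1a, 7.23 for Anxa10, 7.22 for Fgf3, 6.49 for Npy, 6.48 for Ucn, 6.35 for Cckbr, 5.83 for Gpr151, 5.56 for Atf3 and 5.46 for Ecel1.

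Promoter stretches of RefSeq (GRCm38.p6, 250 bases before to 50 after each start) were searched on both strands for TGANTCA, with N any base. These letters take in the site of AP-1, the family of dimers that Jun, Fos and Atf3 belong to. The AP-1 site has C or G at N, so the letters searched are wider than that site. The letters stood in 6.65% of 12383 genes tested that had a promoter entry, in 10.8% of 944 genes that rose, in 16.3% of 306 genes that rose by at least 1 log2 and in 6.96% of 1006 that fell. Of the 12 largest rises 11 had an entry and 3 held the letters, and 0 of 9 of the 12 largest falls under the same limits did. The windows of those 3 genes are shown because they belong to the strongest responses measured, with the matched letters in capitals and each strand read 5′ to 3′ along the gene. The first match of Sprr1a starts 146 bases before the gene's start and the second 116, that of Lipn 148, and those of Anxa10 180 and 16.
Sprr1a, chr3:92486010-92486038, minus strand: ataactaaagcTGAGTCAgagggtgaact
Sprr1a, chr3:92485980-92486008, minus strand: ggggaggagggTGAGTCAtaggtgactgg
Lipn, chr19:34067199-34067227, plus strand: gcaaacatcagTGAGTCAgccaaaatgat
Anxa10, chr8:62123356-62123384, minus strand: ttacctttccaTGAGTCAtcagcttttac
Anxa10, chr8:62123192-62123220, minus strand: atactgtgtttTGAGTCAtgctgttcctg
The cyclic AMP response letters TGACGTCA stood in 3.34% of all 12383 genes, in 2.86% of those that rose, in 0.98% of those that rose by at least 1 log2 and in 3.08% of those that fell. Of the 12 largest rises Ucn held them, starting 44 bases before its start, shown with the match in capitals.
Ucn, chr5:31138921-31138950, minus strand: atgttcttcgcTGACGTCAgtcggagctgt
A match says only that these letters are in the window, and the 2 motifs as searched share no whole match.

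Transcription factors of the axotomy program moved upward or were not called. Of 21 tested, 12 rose and 0 fell, with a median of 0.64 against -0.02 over all genes, and 9 of the 12 calls held without any single input library. Sox11, a developmental regulator of neurite growth, stood at 10.04, 21.5 and 12.4 CPM in naive and 119.5, 117 and 104 CPM in injured input and rose by 2.95 (SE 0.23, adjusted p = 4.54e-06). Jun, a part of AP-1, stood at 92.2, 104 and 94.7 CPM in naive and 207, 211 and 245 CPM in injured input and rose by 1.19 (SE 0.0817, adjusted p = 1.28e-06). For both, the injured libraries lay close together and above the naive ones. Nfil3, a basic leucine zipper factor, rose by 1.64 and Csrnp1, a nuclear factor named for its cysteines and serines, by 1.38. The acute-phase factor Cebpd rose by 0.96, the bone morphogenetic protein mediator Smad1 by 0.84, Klf6 by 0.79, Crem by 0.68, Cebpb by 0.65, Klf7 by 0.34 and Stat3, which relays cytokine signals, by 0.28. Fos did not pass the test at 0.63 (adjusted p = 0.0534, 0.003 with the block), nor did Egr1 at -0.15 (adjusted p = 0.599). The Cebpd call ended without naive replicate 1, that of Stat3 without naive replicate 1 or 2 and that of Crem without naive replicate 2 or injured replicate 1 or 2 (adjusted p up to 0.0533, 0.0818 and 0.0728). Of 24 immediate early genes 8 rose and 0 fell, with a median of 0.26. Of these calls 6 held without any single input library. They included Fosl1 at 3.19 and Fosl2 at 0.87, both Fos relatives, beside Btg2, Ier5, Dusp1 and Junb at 0.73, 0.63, 0.59 and 0.58, where the Ier5 call ended without naive replicate 1 or 2 or injured replicate 2 (adjusted p up to 0.0685) and that of Dusp1 without naive replicate 1 or 2 or injured replicate 3 (up to 0.124).

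Neuropeptides went in both directions. Of 18 tested, 7 rose and 4 fell (median 0.11), and 9 of these 11 calls held without any single input library. Npy stood at 0.429, 3.05 and 1.10 CPM in naive and 55.6, 66.8 and 87.3 CPM in injured input (SE 0.591, adjusted p = 6.46e-05). Gal, the galanin gene, stood at 8.95, 13.96 and 10.9 CPM in naive and 142, 143 and 208 CPM in injured input and rose by 3.87 (SE 0.336, adjusted p = 1.15e-05). Both are peptides that large or small sensory neurons gain after axotomy. Crh, the corticotropin-releasing hormone, rose by 4.20 (5.76 without naive replicate 2), the gastrin-releasing peptide Grp by 3.94, neurotensin (Nts) by 3.09 and Adcyap1, which encodes the peptide PACAP, by 1.30. The peptides that fell are ones that uninjured nociceptors and itch neurons store: somatostatin (Sst) at -0.62, neuromedin B (Nmb) at -0.53, the substance P precursor Tac1 at -0.48 and Calcb, a calcitonin gene-related peptide, at -0.41. Without naive replicate 2 or 3 or injured replicate 1 or 2 Sst lost its call (adjusted p up to 0.157), as Tac1 did without naive replicate 1 or 2 (up to 0.0603). Calca, its more studied relative, did not pass the test at -0.20 (adjusted p = 0.25, 0.000271 with the replicate block). Vip had too few reads to be tested, with 4, 5 and 2 reads in naive and 9, 7 and 2 in injured input.

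**Figure D2:**
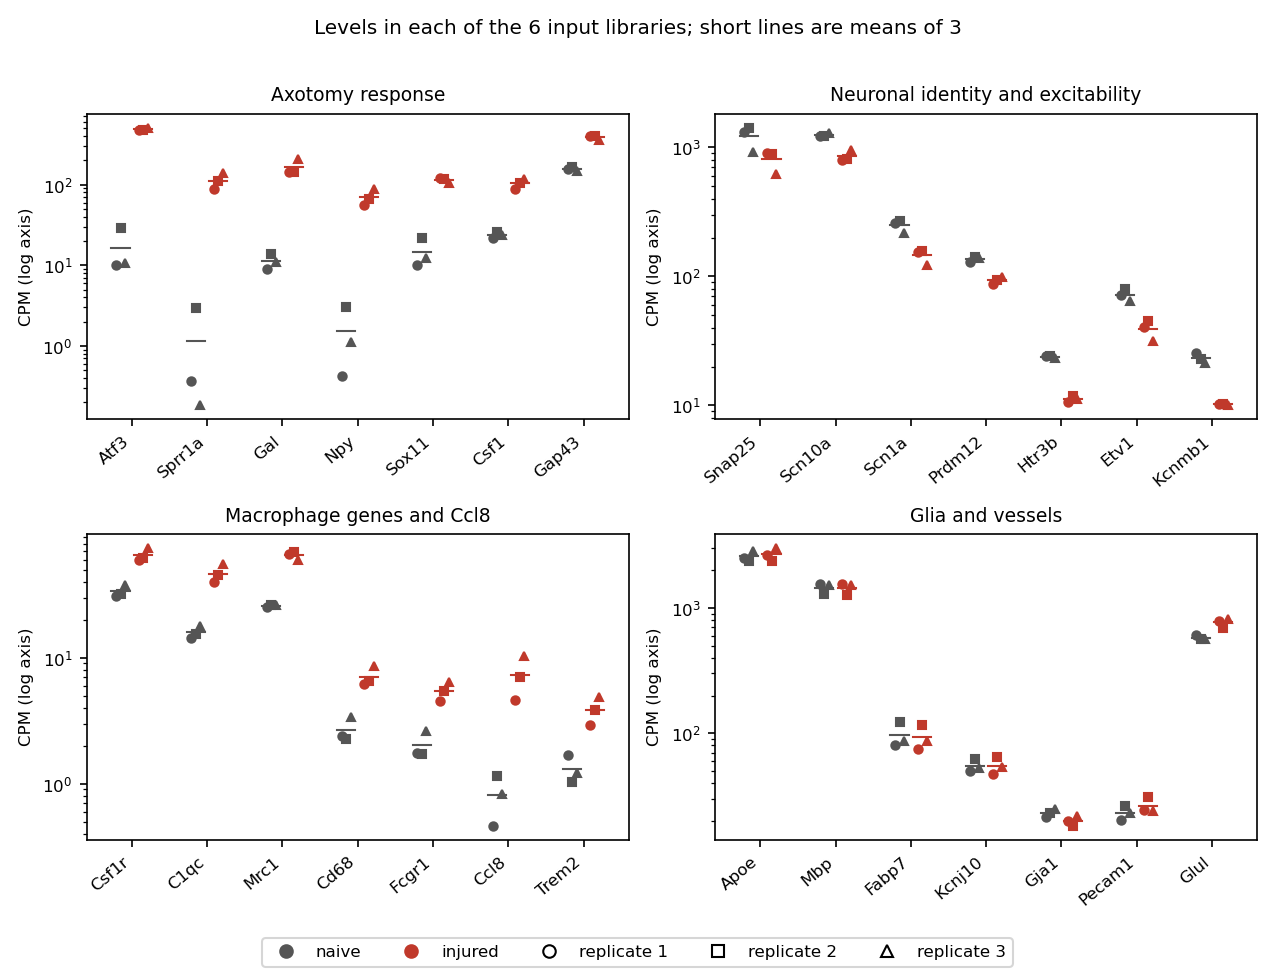
Levels in CPM (log axis) of selected genes in each of the 3 naive and 3 injured input libraries, with circles, squares and triangles for replicates 1, 2 and 3 and a short line at the mean of each group. The genes of the axotomy response lie far apart between the groups, and naive replicate 2 lies above the other naive libraries for Sprr1a, at 0.363, 2.93 and 0.184 CPM in replicates 1 to 3.

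Most genes of axon growth and its cytoskeleton rose. Of 35 tested, 29 rose and 1 fell (median 1.02), 30 had groups that did not overlap upward, and 26 of the 30 calls held without any single input library. Gap43, a protein of the growth cone membrane, stood at 158, 166 and 146 CPM in naive and 406, 403 and 359 CPM in injured input and rose by 1.31 (SE 0.0897, adjusted p = 1.28e-06). Among tubulins, Tubb6 rose by 3.20, Tuba1c by 1.95, Tubb2b by 1.02, Tuba1a by 0.44 and Tubb3 by 0.42, and the tubulin-binding Stmn4 rose by 2.86 where its relatives Stmn2 and Stmn1 rose by 0.52 and 0.24. Close tubulin copies can share reads, so the split between them is uncertain. The smaller of these rises lost the call without some libraries, Tuba1a without naive replicate 1 or 2 or injured replicate 1 or 3 (adjusted p up to 0.106), Tubb3 without naive replicate 1 or 2 (up to 0.068) and Stmn1 without naive replicate 1 or 2 or injured replicate 1 (up to 0.0991). The adhesion protein Flrt3 rose by 2.86, Tnfrsf12a, the receptor of the cytokine TWEAK, by 2.39, Plaur, the urokinase receptor, by 2.13, the laminin-binding integrin subunit Itga7 by 1.86 and Arg1, an arginine-consuming enzyme, by 1.61. The small heat shock protein Hspb1 stood at 225, 240.4 and 239 CPM in naive and 523, 504 and 616 CPM in injured input, a rise of 1.22 (SE 0.097, adjusted p = 3.53e-06). The calcium channel subunit Cacna2d1, the target of gabapentin, rose by 1.19 (SE 0.197, adjusted p = 0.00144). Ankrd1, a mechanically regulated nuclear protein, rose by 5.30, and by 8.07 without naive replicate 1. Nrn1 (neuritin), which promotes neurite growth, was the member that fell, at -0.71 (adjusted p = 0.000223).

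Most of the called genes that mark sensory neurons fell. Over 129 tested genes of 5 lists (pan-neuronal, nociceptor and itch, mechanoreceptor and proprioceptor, sodium and calcium channels, GABA-A and glutamate receptors), 61 fell and 14 rose, with a median of -0.34. Over all genes 8.26% fell and 7.79% rose. The block raised the counts to 86 and 18, against 22.1% and 17.5% of all genes. Among 25 pan-neuronal genes 10 fell and 4 rose (median -0.21), 14 fell and 6 rose with the replicate block, and 8 of the 14 calls without it held when any single input library was left out. The sensory neuron regulators Prdm12, Pou4f1 and Isl1 fell by 0.55, 0.37 and 0.36, the splicing factor Rbfox3 (NeuN) by 0.44 and the neurofilaments Nefh, Nefm and Nefl by 0.40, 0.35 and 0.29. Of these the Nefm call ended in 5 of the 6 refits, all but that without injured replicate 3 (adjusted p up to 0.222), those of Nefl and Pou4f1 without naive replicate 3 (up to 0.0659 and 0.0526) and that of Isl1 without naive replicate 1 or 2 (up to 0.091). Snap25, a protein of vesicle release, fell by 0.60 (adjusted p = 0.0217), a call that ended without naive replicate 1 (adjusted p = 0.0849) and without naive replicate 2 (adjusted p = 0.0853). Uchl1 and Prph, abundant markers of all or of small sensory neurons, did not pass the test, at 0.04 (adjusted p = 0.837) and -0.02 (adjusted p = 0.939). Those that rose were Gap43, Stmn2, Tubb3 and the RNA-binding protein Elavl3, at 0.28.

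Most called genes of nociceptors and itch neurons fell. Of 33 tested, 21 fell and 4 rose (median -0.49), 23 had all injured libraries below all naive libraries, and 17 of the 25 calls held without any single input library. Htr3b and Htr3a, subunits of a serotonin-gated channel, fell by 1.09 (SE 0.108, adjusted p = 2.06e-05) and 0.88 (SE 0.102, adjusted p = 8.99e-05). Htr3a stood at 233, 201 and 227 CPM in naive and 124, 112 and 123 CPM in injured input, without overlap. The cold receptor Trpm8 stood at 56.8, 49.4 and 50.7 CPM in naive and 30.6, 29.3 and 28.8 CPM in injured input and fell by 0.82 (SE 0.0987, adjusted p = 0.000112). The itch and touch receptors of the Mrgpr family, whose close copies can share reads, fell by 0.85 for Mrgprx1, 0.77 for Mrgpra3 and 0.74 for Mrgprd. The irritant receptor Trpa1 fell by 0.57 and the mu opioid receptor Oprm1 by 0.49, and the kappa opioid receptor Oprk1, which stands among the 12 largest falls listed further on, fell by 1.12 (adjusted p = 0.00525). Trpv1, the capsaicin receptor, did not pass the test at -0.17 (adjusted p = 0.142, 0.00202 with the block). Against the direction of the list, Gfra3, the receptor of artemin, rose by 0.64 (SE 0.0705, adjusted p = 5.35e-05), Il31ra, the receptor of an itch cytokine, by 0.58, Htr1f by 0.39 and the receptor kinase Ret by 0.26. Htr1f was no longer called without naive replicate 1 or injured replicate 1 or 2 (adjusted p up to 0.093), nor Ret without naive replicate 1 or 2 or injured replicate 3 (up to 0.138).

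Of 26 genes of mechanoreceptors and proprioceptors 17 fell and 2 rose (median -0.43), and 11 of the 19 calls held without any single input library. Etv1 and Mafa, transcription factors of proprioceptors and of low-threshold mechanoreceptors, fell by 0.87 (SE 0.13, adjusted p = 0.000536) and 0.84 (SE 0.184, adjusted p = 0.00781). Whrn, a scaffold protein of proprioceptors, fell by 0.79, the calcium buffer Calb1 by 0.62, the fast potassium channel Kcnc1 by 0.45, the neurotrophin-3 receptor Ntrk3 by 0.32 and Pvalb, which skeletal muscle also makes, by 0.41. Piezo2, the mechanically gated channel of touch, did not pass the test at -0.19 (adjusted p = 0.148, 0.00043 with the block). Gfra1, a receptor of GDNF, rose by 1.31 (SE 0.0787, adjusted p = 4.21e-07), from 201, 217 and 189 CPM to 472, 532 and 504 CPM, without overlap between the groups. Spp1, the secreted protein osteopontin that proprioceptors and macrophages both make, rose by 0.42. Of these the calls of Ntrk3 and Pvalb ended without naive replicate 3 (adjusted p up to 0.0997 and 0.051), that of Kcnc1 without naive replicate 3 or injured replicate 1 (up to 0.0993) and that of Spp1 without injured replicate 1 or 2 (up to 0.0577).

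Of 27 genes for voltage-gated sodium or calcium channels 10 fell and 2 rose (median -0.28), 17 fell and 3 rose with the replicate block, and 8 of the 12 calls without it held when any single input library was left out. Scn1a, which large sensory neurons use, fell by 0.77 (SE 0.102, adjusted p = 0.000229), and Scn11a and Scn10a, the tetrodotoxin-resistant channels of nociceptors, by 0.57 (adjusted p = 0.000495) and 0.55 (adjusted p = 0.000588). Scn10a stood at 1220.4, 1226 and 1298 CPM in naive and 804, 809.9 and 951 CPM in injured input, each injured library below each naive one. The accessory subunits Scn4b and Cacna2d2 fell by 0.56 and 0.55, and Scn2b by 0.51, where the Scn2b call ended without naive replicate 2 or 3 or injured replicate 1 or 2 (adjusted p up to 0.198). The embryonic sodium channel Scn3a rose by 0.51 (adjusted p = 0.0111), beside Cacna2d1 above. Scn9a did not pass the test at -0.33 (adjusted p = 0.0727, 3.34e-07 with the block).

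Of 28 genes for GABA-A or glutamate receptors 10 fell and 2 rose (median -0.41), and 6 of these 12 calls held without any single input library. The AMPA receptor subunit Gria2 fell by 0.84 (SE 0.158, adjusted p = 0.00283). Gabrb2, a GABA-A subunit, fell by 0.82 (adjusted p = 0.0168; 0.0732 without naive replicate 1 and 0.063 without naive replicate 2). The GABA-A subunits Gabra5 and Gabrg1 rose, by 1.07 (SE 0.192, adjusted p = 0.00201) and by 0.85 (adjusted p = 0.024; 0.0673 without injured replicate 1 and 0.0885 without injured replicate 2). The 12 largest falls under the limits used for the rises (called, at least 2 CPM on average and no overlap of the groups) held Oprk1 above, 4 muscle genes given further on and the following. Kcnmb1, a subunit of calcium-activated potassium channels, stood at 25.5, 22.8 and 21.3 CPM in naive and 10.3, 10.3 and 10.02 CPM in injured input and fell by 1.19 (SE 0.11, adjusted p = 1.3e-05). The galactosidase-like Glb1l2 fell by 1.13, Agtr1b, an angiotensin receptor, by 1.13, Tpd52l1 by 1.36, Tmem196 by 1.24, Gm13446 by 1.11 and the kinase Cdkl4 by 1.13. The Cdkl4 call ended without naive replicate 1 (adjusted p = 0.0784), naive replicate 2 (0.0683) or injured replicate 3 (0.0521), and that of Tmem196 when only the 6 input libraries were fitted (adjusted p = 0.0562).

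Ligands and receptors of trophic factors were divided. Of 23 tested 6 rose and 3 fell (median 0.04), and 5 of these calls held without any single input library. Vgf, a secreted peptide precursor that neurotrophins induce, rose by 1.80 (SE 0.184, adjusted p = 4.11e-05). The GDNF-family receptors Gfra1, Gfra3 and Ret rose while Gfra2, the neurturin receptor, fell by 0.58 and the neurotrophin receptor Ntrk3 by 0.32. Bdnf did not pass the test at 0.58 (adjusted p = 0.0659, 3.1e-08 with the block).

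Stress genes that were called all rose. Of 30 genes of the integrated stress and p53 responses 14 rose and 0 fell (median 0.33), and 9 of the calls held without any single input library. Gadd45a, a growth arrest and DNA damage protein, rose by 2.66, its relative Gadd45g by 1.65, Chac1, a glutathione-degrading enzyme downstream of Atf4, by 1.65, the cell cycle inhibitor Cdkn1a by 1.49, the cell death protein Pmaip1 (Noxa) by 1.27, the pseudokinase Trib3 by 0.86 and Atf4 by 0.50. Of 17 heat shock genes Hspb1 was the one called, and the median was -0.07 (3 rose and 6 fell with the replicate block).

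**Figure D3:**
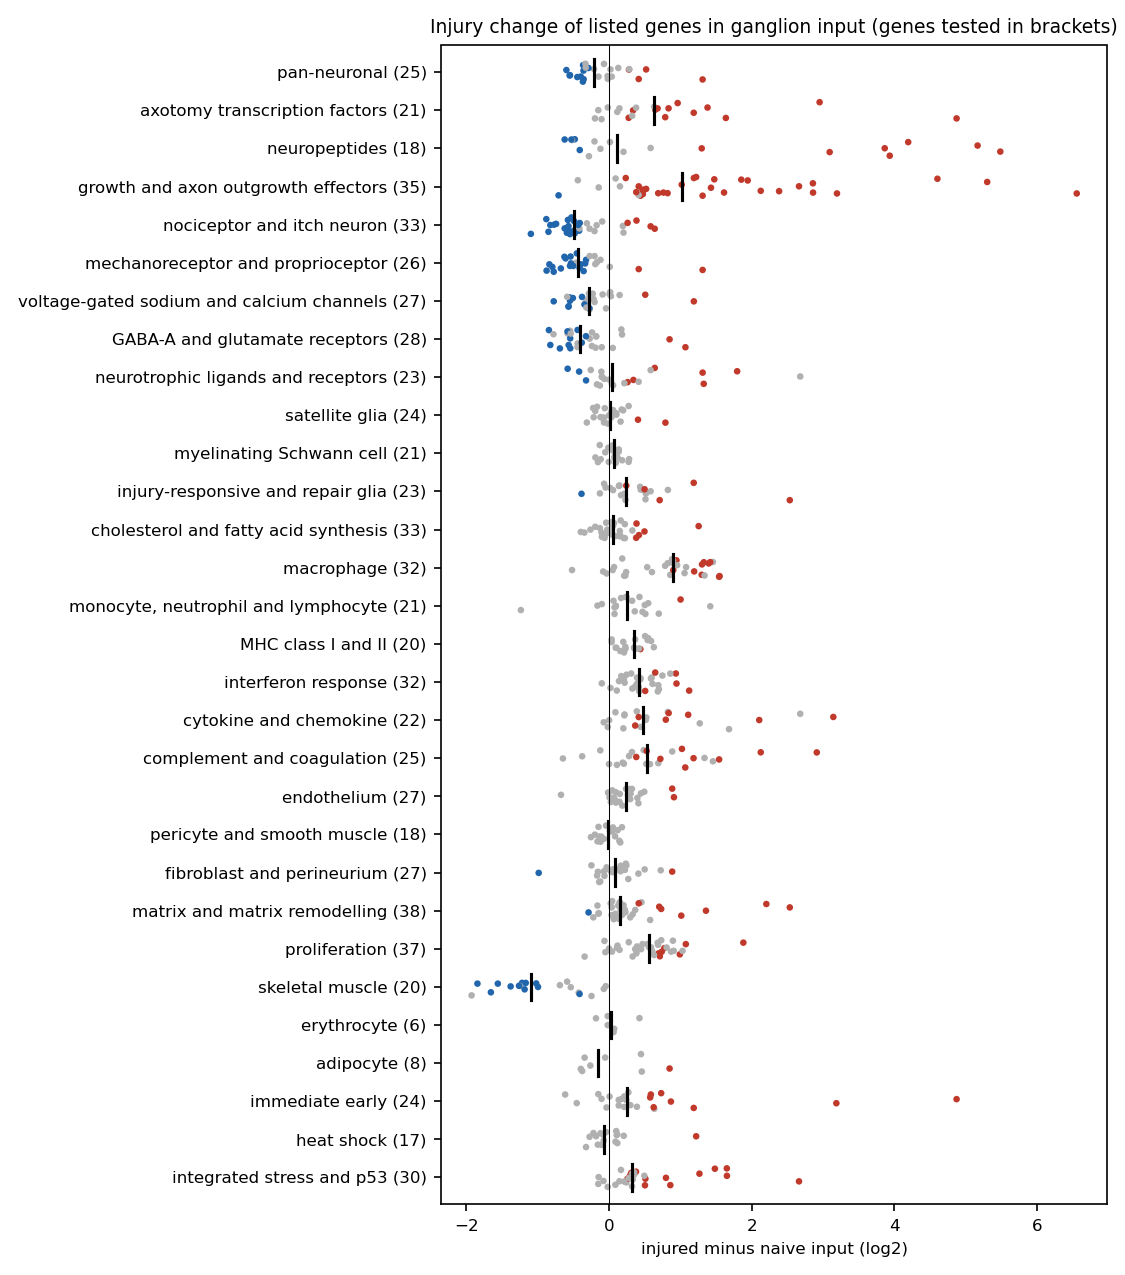
Change after crush (log2, injured against naive input) of every tested member of the 30 gene lists, 1 point per gene and 1 row per list, red where the gene rose, blue where it fell and grey where it was not called, with a bar at the median of each list. Growth genes centre at 1.02 and macrophage genes at 0.90, nociceptor genes at -0.49 and skeletal muscle genes at -1.09, while myelinating Schwann cell genes lie near 0.

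Beyond neurons, some macrophage genes rose: of 32 tested, 10 rose, 0 fell and 22 did not pass the test (median 0.90), and for 21 of the 32 all injured libraries lay above all naive ones. Summed over the list, the level was 1931, 1907 and 2035 CPM in naive and 2272, 2474 and 2715 CPM in injured input. Mrc1, the mannose receptor of resident macrophages, stood at 25.3, 26.3 and 26.1 CPM in naive and 66.9, 68.95 and 59.5 CPM in injured input and rose by 1.33 (SE 0.15, adjusted p = 6.62e-05). The Csf1 receptor Csf1r rose by 0.95 (adjusted p = 0.0242), Emr1, the F4/80 antigen, by 1.19, Aif1 (Iba1) by 1.30, the Fc receptors Fcgr3 and Fcgr1 by 1.30 and 1.42, Cd68, a lysosomal protein of phagocytes, by 1.40 and the scavenger receptor Cd163 by 0.90. Trem2, a lipid-sensing receptor, and the complement subunit C1qc rose by 1.55 (adjusted p = 0.0465) and 1.54 (adjusted p = 0.0367). C1qa and C1qb, which are made with it, did not pass the test at 1.34 (adjusted p = 0.0971, 5.95e-16 with the block) and 1.46 (adjusted p = 0.0505, 1.08e-15 with the block). C1qa stood at 20.5, 26.1 and 25.9 CPM in naive and 51.6, 59.7 and 72.2 CPM in injured input. The calls in this list depend on how the spread is estimated: 19 rose when only the 6 input libraries were fitted (in that fit 8.62% of all genes were called and 5.54% rose) and 25 with the replicate block (17.5% of all genes), while 1 of the 10 calls held in all refits that left out a single input library. Trem2 and C1qc lost the call in each of the 6 refits (adjusted p up to 0.137 and 0.125), and the whole list had 1 call without naive replicate 1, 3 without naive replicate 2 or injured replicate 3, 4 without injured replicate 2, 6 without injured replicate 1 and 8 without naive replicate 3. The list's median stayed between 0.83 and 1.08 in these refits. Csf1r lost its call without naive replicate 1 (0.094), naive replicate 2 (0.069) or injured replicate 3 (0.0715), as did Cd68, and Fcgr1 also without injured replicate 2. Emr1 lost it in all refits but that without naive replicate 3, Aif1 without naive replicate 1 or 2 or injured replicate 2 or 3, Cd163 without naive replicate 1 or 3 or injured replicate 1 or 2 and Fcgr3 without naive replicate 1 (adjusted p up to 0.0866, 0.112, 0.126 and 0.072). All these refits were without the block. With it, leaving out both input libraries numbered 1, 2 or 3 was an alternative chosen after seeing the data. It kept the calls of Trem2 (adjusted p = 1.79e-05, 0.006 and 0.00773), C1qc (2.31e-13, 4.96e-10 and 1.42e-10) and Csf1r (5.67e-11, 1.43e-08 and 1.52e-09).

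Other blood-derived cells were covered by 21 markers, most of which were not called. Of the 21 monocyte, neutrophil and lymphocyte genes Cd52, a surface protein of leukocytes, was the one called, at 1.00 (adjusted p = 0.0486; 0.184 without naive replicate 1, 0.123 without naive replicate 2, 0.12 without injured replicate 2 and 0.125 without injured replicate 3). By the blocked fit 6 rose and 1 fell, among them the monocyte chemokine receptor Ccr2 at 0.70 (adjusted p = 0.0389 with the block and 0.373 without it). The T cell gene Cd3e had too few reads to be tested, with 2, 8 and 4 in naive and 3, 6 and 8 in injured input.

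Of 22 cytokine and chemokine genes 7 rose and 0 fell (median 0.48), and 2 of the calls, Csf1 and Ccl8, held without any single input library. Csf1, the growth factor of macrophages and microglia that axotomized neurons make, stood at 21.97, 26.02 and 24.00 CPM in naive and 89.4, 103 and 117 CPM in injured input and rose by 2.11 (SE 0.12, adjusted p = 3.42e-07). Ccl8, a monocyte chemokine, rose by 3.15 (SE 0.406, adjusted p = 0.000236), from 0.462, 1.16 and 0.828 CPM to 4.62, 7.04 and 10.3 CPM. For both genes the groups did not overlap. Clcf1 rose by 1.11 and Tgfb1 by 0.84, where the Clcf1 call ended without any 1 of the libraries other than injured replicate 3 (adjusted p up to 0.0778) and the Tgfb1 call without naive replicate 1 (0.0727), and Cxcl16 and Il34, a further ligand of Csf1r, by 0.80 and 0.37. The Cxcl16 call ended in all refits but that without naive replicate 3 (adjusted p up to 0.152) and that of Il34 without naive replicate 2 or injured replicate 3 (up to 0.0897). Il6, an early injury cytokine, stood at 0.0661, 0.326 and 0.0307 CPM in naive and 0.69, 1.44 and 0.69 CPM in injured input, so that all injured libraries were above all naive ones, with a change of 2.68 (SE 0.91, adjusted p = 0.0674, 0.00996 with the block). Ccl2, the main monocyte attractant, stood at 0.76, 1.99 and 1.04 CPM in naive and 1.53, 2.62 and 2.63 CPM in injured input and did not pass the test at 0.83 (adjusted p = 0.234, 0.00568 with the block).

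Of 25 complement and coagulation genes 9 rose and 0 fell (median 0.53; 20 rose and 1 fell with the block), 18 had all injured libraries above all naive ones, and 6 of the 9 calls held without any single input library. C4b, a central component of complement, stood at 71.2, 82.8 and 85.9 CPM in naive and 125, 149 and 213 CPM in injured input and rose by 1.02 (SE 0.221, adjusted p = 0.00757). C3, the other central component, rose by 1.07 (adjusted p = 0.0139), and its call ended without naive replicate 1 or naive replicate 2 (adjusted p up to 0.0646). The plasminogen activators Plau and Plat rose by 0.72 and 0.53, beside Plaur, the receptor of Plau. F13a1, a clotting factor subunit that macrophages also make, rose by 1.19 (adjusted p = 0.0386), and its call ended in each of the 6 refits without 1 input library (adjusted p up to 0.124).

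Of 32 genes induced by interferon 5 rose and 0 fell (median 0.42), and 31 of the 32 changes were above 0. Mx2 rose by 0.94 (SE 0.216, adjusted p = 0.0101) and was called in all 6 refits without 1 input library. Oas1a, Trim30a and Ifi27l2a rose by 1.12, 0.95 and 0.65, and lost the call without naive replicate 1 or 2 or without injured replicate 2 or 3, and Trim30a also without naive replicate 3 (adjusted p up to 0.109, 0.107 and 0.154). The list gave 17 rises with the replicate block. Of 20 genes of class I and class II antigen presentation all 20 changes were above 0 (median 0.36), and H2-D1, whose close relatives can share reads, was the one called, at 0.44 (adjusted p = 0.0254; 0.104 without naive replicate 1, 0.101 without naive replicate 2 and 0.0557 without injured replicate 3). In the blocked fit 15 of the 20 rose, while the summed level overlapped between the groups, at 925, 913 and 1175 CPM in naive and 1077, 1115 and 1497 CPM in injured input.

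A minority of the genes of the cell cycle rose, though a larger share than over all genes. Of 37 tested 7 rose, 0 fell and 30 did not pass the test (median 0.56), where 7.79% of all genes rose. For 20 the groups did not overlap upward, against 14% of all genes, and 34 of the 37 changes were above 0. With the replicate block 21 rose and 1 fell, against 17.5% and 22.1% of all genes. Mki67, a marker of cells in cycle, stood at 18.5, 22.3 and 21.00 CPM in naive and 31.4, 43.1 and 31.4 CPM in injured input and rose by 0.78 (SE 0.192, adjusted p = 0.0161; 0.0749 without naive replicate 1 and 0.0648 without injured replicate 2). Prc1, a protein of the dividing cell's midzone, rose by 1.88 (SE 0.139, adjusted p = 2.21e-06), Ccnb1, a mitotic cyclin, by 1.08, Top2a, a topoisomerase of dividing cells, by 0.99, Birc5 by 0.74 (adjusted p up to 0.108 without naive replicate 1 or 2 or injured replicate 2 or 3) and the replication helicase subunit Mcm6 by 0.71. Ccnb1 lost its call without any 1 of the libraries other than naive replicate 3 and Top2a without naive replicate 1 or 2 or injured replicate 2 (adjusted p up to 0.179 and 0.0769), and 2 of the 7 calls held in all 6 refits. The list's summed level was 244, 259 and 255 CPM in naive and 295, 339 and 330.0 CPM in injured input.

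Few genes of satellite glia, the cells that wrap each neuron, passed the test. Of 24 marker genes 2 rose and 0 fell (median 0.02), where 7.79% of all genes rose and 8.26% fell, so the rises were near the share over all genes. Aldh1l1, a folate enzyme of astrocytes and satellite glia, rose by 0.79 (SE 0.114, adjusted p = 0.000433), from 15.6, 15.3 and 15.5 CPM to 24.2, 23.7 and 32.6 CPM, and Glul, glutamine synthetase, by 0.41 (SE 0.0774, adjusted p = 0.003), from 609.5, 561 and 566 CPM to 792, 696 and 815 CPM. Both calls held without any single input library. Apoe, a lipid carrier, stood at 2508, 2378 and 2831 CPM in naive and 2666, 2384 and 2989 CPM in injured input, with a change of 0.06 (adjusted p = 0.959). Fabp7, Kcnj10, the potassium channel that clears potassium around neurons, and the gap junction protein Gja1 did not pass the test, at -0.07 (adjusted p = 0.946), 0.00 (0.995) and -0.22 (0.652). With the replicate block 6 rose and 6 fell, where 17.5% and 22.1% of all genes did, and Gja1 fell among them (adjusted p = 0.029).

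Myelin genes of Schwann cells showed no call in either direction. Of 21 tested 0 rose and 0 fell by edgeR (median 0.08), and 3 rose and 1 fell with the replicate block. Mbp, a structural protein of myelin, stood at 1539.9, 1289 and 1518 CPM in naive and 1547, 1256 and 1518 CPM in injured input, a change of -0.01 (SE 0.199, adjusted p = 0.987). Summed over the list, the level was 6706, 5270.4 and 5967 CPM in naive and 6662, 5325 and 6093 CPM in injured input, and it varied more between replicate numbers than between the groups. Of 23 genes of injury-responsive and repair glia 5 rose and 1 fell (median 0.24), and 4 of these calls held without any single input library. Timp1, an inhibitor of matrix proteases, stood at 1.75, 2.40 and 1.29 CPM in naive and 8.82, 9.47 and 13.4 CPM in injured input and rose by 2.54 (SE 0.314, adjusted p = 0.000181). Sema4f rose by 0.71, the adhesion molecule Ncam1 by 0.24 (adjusted p up to 0.0779 without naive replicate 1 or 2) and Serpina3n by 0.50 (adjusted p = 0.0145, 0.0753 without naive replicate 1), while Cd9 fell by 0.38. Gfap, a filament of reactive satellite glia, stood at 4.26, 4.42 and 5.61 CPM in naive and 3.45, 6.37 and 9.56 CPM in injured input and did not pass the test at 0.44 (adjusted p = 0.566). Of 33 genes of cholesterol and fatty acid synthesis 5 rose and 0 fell (median 0.06; 13 rose and 4 fell with the block), with Hsd17b7, a sterol reductase, at 1.26 (SE 0.166, adjusted p = 0.000294) and Mvd at 0.50. Ebp and Mvk rose by 0.39 and 0.42, and each call ended without naive replicate 1 or without naive replicate 2 (adjusted p up to 0.0536 and 0.077).

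Few vessel and connective tissue markers passed the test, where 7.79% of all genes rose and 8.26% fell (17.5% and 22.1% with the block). The count of endothelial rises was near the first share, while 24 of the 27 endothelial changes were above 0. The summed endothelial level was 493, 526 and 528 CPM in naive and 595, 625 and 698 CPM in injured input, without overlap. Of 27 endothelial genes 2 rose and 0 fell (median 0.24; 11 rose and 0 fell with the block): Podxl, a surface mucin, by 0.91 (adjusted p = 0.00375) and the glucose transporter Slc2a1, also carried by perineurial cells, by 0.89 (SE 0.111, adjusted p = 0.000155). The defining endothelial genes Pecam1 and Cdh5 did not pass the test, at 0.19 (adjusted p = 0.459, 0.0468 with the block) and 0.05 (adjusted p = 0.924). Of 18 pericyte and smooth muscle genes 0 were called by edgeR (median -0.01, and 0.01 with library size alone or DESeq2 size factors as scaling; 1 rose and 2 fell with the block), with Mcam at 0.15 (adjusted p = 0.217, 0.00862 with the block) and Rgs4 at -0.20 (adjusted p = 0.14, 0.000246 with the block). Of 27 fibroblast and perineurium genes Slc2a1 rose and Comp, a cartilage and fibroblast matrix protein, fell by 0.98 (SE 0.138, adjusted p = 0.000364), from 23.3, 19.5 and 29.4 CPM to 12.5, 12.1 and 11.9 CPM (8 rose and 2 fell with the block). The summed level of this list was 3506, 3223 and 3807 CPM in naive and 4571, 4039.5 and 4622 CPM in injured input, without overlap. A sum is weighted toward abundant genes. The list's median change was 0.09, and 17 of the 27 changes were above 0. Of 38 matrix genes 7 rose and 1 fell (median 0.16; 19 rose and 2 fell with the block), and 6 of the 8 calls held without any single input library. Beside Timp1 and Spp1, the membrane-bound protease Mmp16 rose by 2.21 (SE 0.138, adjusted p = 6.56e-07), the collagen crosslinker Loxl2 by 1.36, Mmp19 by 1.01, Lama5 by 0.73 and Adamts1 by 0.70, while Timp2 fell by 0.29 (adjusted p up to 0.158 without naive replicate 2 or 3 or injured replicate 1). The fibrillar collagens Col1a1 and Col3a1 did not pass the test, at 0.24 (adjusted p = 0.66, 0.000107 with the block) and 0.24 (adjusted p = 0.594, 4.28e-05 with the block).

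Many skeletal muscle genes, which no cell of the ganglion is defined by, fell in injured input. Of 20 tested 11 fell and 0 rose (median -1.09), and Tnnt3, Acta1, Ckm and Myh4 are 4 of the 12 largest falls with at least 2 CPM on average and no overlap of the groups. Without Pvalb, which proprioceptors also make, the other 19 genes summed to 79.2, 94.4 and 90.1 CPM in naive and 44.7, 48.2 and 53.05 CPM in injured input, and 10 of them fell. Tnnt3, a fast-muscle troponin, stood at 2.61, 3.08 and 3.89 CPM in naive and 1.05, 1.05 and 1.15 CPM in injured input and fell by 1.56 (SE 0.27, adjusted p = 0.00164). Acta1, skeletal actin, stood at 7.96, 6.43 and 11.7 CPM in naive and 2.97, 4.06 and 4.17 CPM in injured input and fell by 1.22 (SE 0.255, adjusted p = 0.00563). In IP 0 of the 20 fell and 1 rose. Myl1, Myh1, Myh4 and Tnnc2 fell by 1.84, 1.66, 1.17 and 1.38, and Ckm by 1.18 (adjusted p = 0.0305), all of them contractile proteins or muscle enzymes. Each of these 5 calls ended without naive replicate 1, those of Myl1 and Ckm also without naive replicate 3 or injured replicate 1 or 2, that of Myh1 without naive replicate 2 or injured replicate 1, and that of Myh4 without naive replicate 3 or injured replicate 2 (adjusted p up to 0.066, 0.152, 0.128, 0.0699 and 0.0583). The change of Ckm was -0.75 without naive replicate 3, and 3 of the 11 calls held in all 6 refits. Whether muscle RNA moves with any other change described here was not tested. Of 6 erythrocyte genes 0 were called by edgeR (0 rose and 1 fell with the block), with Bpgm at -0.18 (adjusted p = 0.281, 0.0382 with the block) and Slc4a1 at 0.07 (adjusted p = 0.937). Of 8 adipocyte genes Lipe, a hormone-sensitive lipase also made outside fat, rose by 0.85 (adjusted p = 0.0167; 0.0791 without naive replicate 1 and 0.0534 without injured replicate 2), and Plin1 and Adipoq did not pass the test at -0.34 (adjusted p = 0.723) and 0.45 (adjusted p = 0.588).

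Over 7 lists of other cell types (satellite glia, myelinating Schwann cells, macrophages, other leukocytes, endothelium, pericytes, fibroblasts and perineurium), 167 genes gave 15 rises and 1 fall, with a median of 0.12. Over all genes 7.79% rose and 8.26% fell, so the pooled rises were near that share and the falls below it. The lists were unlike, as macrophage genes gave 10 of the 15 rises. When only the 6 input libraries were fitted, 19 of the 32 macrophage genes rose, against 5.54% of all genes. The blocked fit gave 58 rises and 11 falls, against 17.5% and 22.1% of all genes. All injured libraries lay above all naive ones for 32 of the 167 genes and below for 2, against 14% and 14.7% of all genes tested.

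The injury change of input was set against that of the neuronal IP in the same fit. The IP was drawn from the input of the same ganglia, so the 2 fractions are not fully independent, although the 2 changes share no library. The overlaps below are therefore not between independent samples. In IP 2939 genes changed (18.7%), 1818 higher (11.5%) and 1121 lower (7.12%). Of the 1226 genes that rose in input, 1088 (88.7%) also rose in IP, where they were 59.8% of the rises. Of the 1300 that fell in input, 847 (65.2%) also fell in IP, where they were 75.6% of the falls, and 0 genes were called in opposite directions. The difference between the changes passed the test for 10 genes (0.0635%), and each of the 10 rose in both fractions and rose less in input. Anxa1, an annexin with a role in the resolution of inflammation, stood at 12.6, 12.5 and 13.2 CPM in naive and 35.4, 36.2 and 31.5 CPM in injured input, a rise of 1.43 against 4.55 in IP (difference -3.12, SE 0.414, adjusted p = 0.0215; 0.087 with the block). Xdh, xanthine dehydrogenase, stood at 16.1, 19.8 and 16.4 CPM in naive and 53.4, 65.1 and 72.8 CPM in injured input, a rise of 1.87 against 3.78 in IP (difference -1.91, SE 0.273, adjusted p = 0.0235). The p53-induced Trp53i11 rose by 1.54 in input and 3.74 in IP, Pxdc1 by 1.24 and 3.27, the membrane protein Tmem98 by 1.04 and 2.50, the intracellular channel protein Clic4 by 0.45 and 1.67, the small GTPase Rab31 by 0.62 and 1.65, and Cdkn1a by 1.49 and 2.48. For all 10 the naive level was lower in IP than in input, such as 0.53, 2.86 and 1.39 CPM for Anxa1 and 2.99, 5.90 and 4.43 CPM for Xdh in the naive IP libraries, while the injured levels of Anxa1 and Xdh in IP were 38.4, 37.9 and 37.3 CPM and 52.8, 62.98 and 67.99 CPM. The call of Clic4 in input ended without naive replicate 1 (adjusted p = 0.0532). Bach1, a repressor of haem and antioxidant genes, and Myo10, the myosin of filopodia, were the other 2. With the replicate block 282 genes differed (1.79%), 262 lower and 20 higher in input, and DESeq2 called 44 (0.279%), 41 lower (0.26%) and 3 higher (0.0191%). Leaving out 1 library gave 0 calls without injured input replicate 1 or IP injury replicate 3, 1 without naive input replicate 3, injured input replicate 2, IP naive replicate 3 or IP injury replicate 2, 3 without naive input replicate 1, 4 without naive input replicate 2, 5 without IP naive replicate 1 and 15 without injured input replicate 3.

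The lists of other cells also passed the test in IP in part, and whether RNA of those cells was carried into IP was not tested. Over all genes 11.5% rose in IP and 7.79% in input, while 7.12% and 8.26% fell. Macrophage genes rose in 9 of 32 cases in IP and 10 in input, interferon genes in 14 and 5 of 32, cholesterol and fatty acid genes in 14 and 5 of 33, and matrix genes in 16 and 7 of 38. Cytokine genes rose in 9 and 7 of 22 cases. Growth genes rose in 31 of 35 cases in IP and 29 in input, and nociceptor genes fell in 20 and 21 of 33. No difference between fractions was called for a member of the macrophage, interferon, cholesterol, matrix, cytokine or nociceptor lists in the fit without the block. That fit called 0.0635% of all genes, so the absence of calls in lists this short says little about them. With it, 14 of the 38 matrix genes had a smaller change in input than in IP (1.66% of all genes did) and 0 a larger one, among them Loxl2 at 1.36 against 2.54 in IP, Lama5 at 0.73 against 1.77 and Postn, a matrix protein of fibroblasts, at 0.04 against 0.66. Of the cholesterol and fatty acid genes 4 had a smaller change in input and 1 a larger one (0.127% of all genes did), and Csf1r of the macrophage list and Csf1 of the cytokine list had a smaller one, at 0.95 against 1.44 and 2.11 against 2.84. No member of the interferon or nociceptor lists differed with the block, where 1.79% of all genes did, so this too says little about these lists.

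**Figure D4:**
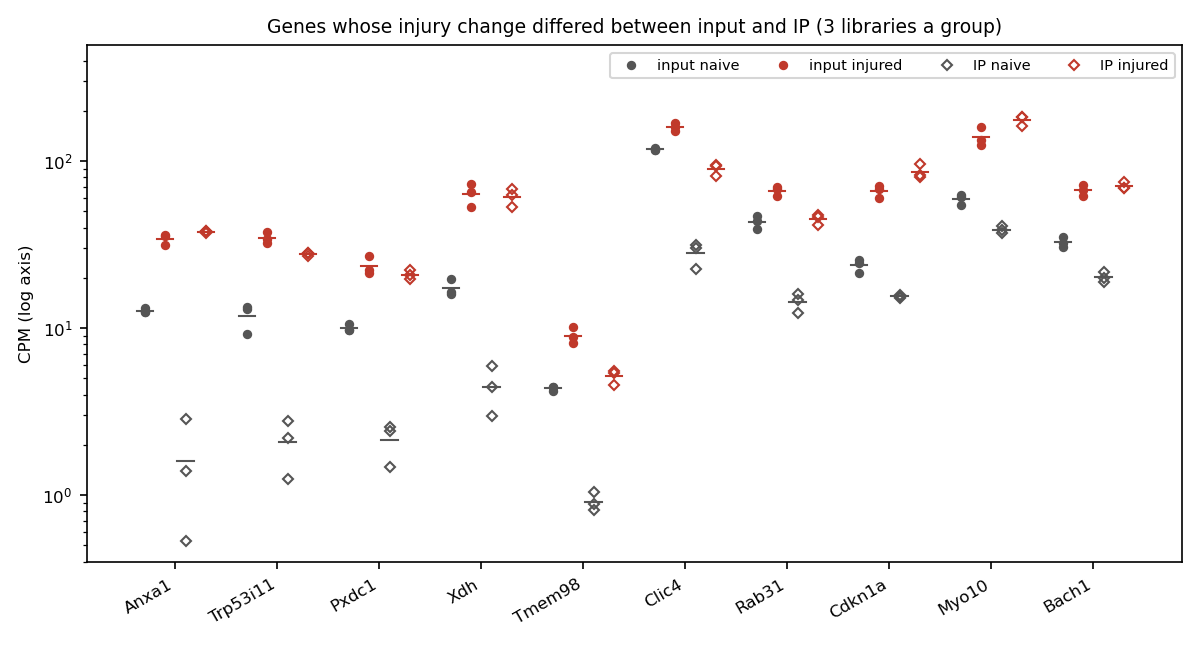
Levels in CPM (log axis) of the 10 genes whose injury change differed between the fractions, with filled circles for input, open diamonds for IP, grey for naive and red for injured, 1 marker per library and a short line at the mean of 3. The fractions lie closer together after injury than in naive ganglia for Anxa1, at 35.4, 36.2 and 31.5 CPM in input and 38.4, 37.9 and 37.3 CPM in IP.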

How the data were processed

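RNA of 12 libraries was analysed, 3 in each of 4 groups taken from the sample titles, and the 6 input libraries are the subject here. The libraries are stranded total RNA after removal of ribosomal RNA, per the labels' protocols, with RNeasy-purified RNA, so they keep unspliced and noncoding transcripts. Tools named in the submitters' processing notes, with no role, are STAR, HTSeq and bcl2fastq 2.17, beside the builds mm10 and GRCm38. The authors deposited raw read counts per gene symbol. The assignment of reads on overlapping genes or near-identical copies was not stated. Of 24060 entries, 27 with names turned into dates (0.191% to 0.214% of an input library's counts) were left out, which left 24033.

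Counts were tested with edgeR 4.0.16 (R 4.3.3, quasi-likelihood F test, robust) on all 12 libraries (a mean for each of 4 groups, residual degrees of freedom 8), TMM scaling (factors 1.022 to 1.065 in input) and filterByExpr, and the scripts were checked on simulated data. The spread is thus shared with IP. Contrasts were injured against naive in input, the same in IP, and their difference. Input libraries of the same replicate number deviated together over 15748 genes (correlations of deviations from the group means of 0.273, 0.423 and 0.597). Between unlike numbers the correlations ran from -0.467 to 0.206, the highest for naive 2 with injured 1. The replicate number was taken as pairing the libraries, and a fit with it as a block stands beside results that it changes. The block leaves fewer than 8 residual degrees of freedom, so its very small p-values lean on spread pooled over genes. It is not the stronger test for every gene: adjusted p-values with it were 0.0031 for Atf3 and 0.0028 for Sprr1a, against 5.7e-05 and 0.000119 without it. Calls given without mention of the block come from the fit without it. No replicates were merged, since their counts differed beyond sampling noise (chi-square 8.63 to 54.2 per degree of freedom). Alternatives were other scalings, filters and tools (limma 3.58.1, DESeq2 1.42.0), input libraries alone and each library left out.

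Genes named were the 12 largest rises and falls with at least 2 CPM, up to 4 called members of each of 30 lists by size of change, up to 8 differences from IP in each direction, and fixed anchors. A few of these are not reported here. Other genes were named from the lists after their values were seen. The members and lists were chosen with earlier results of these data known. Of the listed genes 3 were not matched in the table. Positions came from RefSeq on GRCm38, with 14898 of the genes tested matched by symbol, 795 by synonym and 55 unmatched.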

Additional observations from a re-analysis of the deposited data

Results flagged for a closer look

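The injury change in input was smaller than that in neuronal IP, by the test of the difference in the fit of all 12 libraries, for the following genes, given as input minus IP on the log2 scale. The difference was -3.12 for Anxa1, -2.2 for Trp53i11 and -2.04 for Pxdc1. It was -1.91 for Xdh, -1.46 for Tmem98 and -1.23 for Clic4. Smaller differences were measured for Rab31, at -1.03, and Cdkn1a, at -0.995. Of these 8, Anxa1 did not pass with the replicate block (adjusted p = 0.087) and the other 7 did.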

How the results depend on the processing

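With the replicate block in all 12 libraries 6237 genes were called in input (2753 higher, 3484 lower), and with it in the 6 input libraries alone 6161 (3110 and 3051). Without the block the input libraries alone gave 1335, of which 477 were lower. Leaving out libraries gave 1157 to 2939 calls (764 to 1936 higher, 342 to 1556 lower). With the block, leaving out both input libraries of replicate 1, 2 or 3, an alternative chosen after seeing the data, gave 5205, 4510 and 5026 calls (3082, 2648 and 3333 higher, and 2123 lower for replicate 1). Differences between input and IP numbered 282 with the block (20 higher, 262 lower), 44 with DESeq2 (3 and 41) and 0 to 15 when libraries were left out, none of them higher in input. With the block they numbered 144, 95 and 136 without replicates 1, 2 and 3 (31, 14 and 40 higher, 113, 81 and 96 lower). Other scalings, filters and tools kept the input count within 1.5 times of 2526 (1345 higher and 1092 lower with library size alone, 1372 and 1081 with DESeq2 size factors, 1325 and 986 with no filter on low counts, 1540 and 1252 with DESeq2, 1253 and 1275 with limma-voom).

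Over the 123 genes named, alternatives kept the direction and the call 2336 times, ended a call 182 times, gained one 30 times and turned the direction 33 times, each of these for a gene that was not called. Mbp turned to 0.0174 with library size alone, 0.0178 with DESeq2 size factors and with DESeq2, 0.0216 with no filter, 0.0139 with the input libraries alone and 0.0131 there with the block. With libraries left out the changes ran from -0.0863 to 0.107 for Mbp, -0.127 to 0.106 for Kcnj10, -0.158 to 0.0391 for Avil, -0.269 to 0.143 for Fabp7, -0.0270 to 0.213 for Apoe and -0.244 to 0.315 for Slc4a1. With the block Kcnj10 was at -0.00150, and with limma-voom at -0.00412. With the block and replicates 1, 2 or 3 left out Mbp was at 0.0380, 0.0496 and 0.0864, Avil at 0.0142 without replicates 2, Fabp7 at 0.0127 and 0.00107 without replicates 1 and 3, and Slc4a1 at -0.0202 without replicates 2. The causes were not tested.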

Other observations

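With the replicate block, 20 genes had a higher injury change in input than in IP, and 4 of them, chosen after their values were seen, are given here. Without the block edgeR called 0 genes higher in input (106 at an unadjusted p under 0.05) and DESeq2 3. A2m, a broad protease inhibitor, rose in input by 0.52 log2 (adjusted p = 0.00559) and changed by -0.16 in IP, a difference with an adjusted p = 0.308 without the block. Hist1h3e, a histone gene that is transcribed during DNA replication, rose in input by 0.44 log2 (adjusted p = 0.0408) and changed by -0.04 in IP (adjusted p of the difference 1 without the block). Cd34, a surface protein of vessels and fibroblasts, fell less in input, at -0.30, than in IP, at -0.66, and so did Cyp26b1, a retinoic acid-degrading enzyme, at -0.50 and -1.36 (adjusted p of the difference 0.705 and 0.346 without the block).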
